A study of Mus musculus with 10 samples.

Results

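Cathepsins are the proteases of lysosomes, the acid compartments in which cells degrade what they take up. The 10 genes described here are the cathepsin genes Ctsb, Ctsc, Ctsd, Ctsh, Ctsl, Ctss and Ctsz, the legumain gene Lgmn, and the cystatin genes Cst3 and Cst7. They were chosen by name from the 56884 rows of a gene count table, with earlier results of these data known. All 10 were among the 17622 genes with enough counts to be tested. In the hippocampus of female P301S mice given DHT, 9 of the 10 were higher than in mice given a void implant, at an adjusted p under 0.05 (the quasi-likelihood test of edgeR, Benjamini-Hochberg over all genes tested), as were 5.22% of all genes. None of the 10 was lower, against 0.261% of all genes. Cst7 rose most, 12.1-fold, and Ctss and Ctsh rose more than 2-fold. These 3 also passed a limit of 1 on the log2 fold change, which 2.17% of all genes did in the upward direction. Ctsb, the cathepsin gene with the most counts, rose 1.25-fold. Cst3 also had a ratio of 1.25, with a larger standard error, and was the gene that did not pass.

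All 10 mice were ovary-intact females of the P301S (PS19) line, labelled hTau, in which the mouse Prnp promoter drives human Tau with the P301S mutation. At 6 months of age, 5 mice received subcutaneous SILASTIC tubing holding 10 mm of dihydrotestosterone (DHT), an androgen that cannot be converted to estrogen, and 5 received tubing without hormone (void). Treatment lasted 12 weeks, and the hippocampi, taken at 9 to 9.5 months after perfusion with PBS, each gave 1 mRNA library. Mice without the transgene and male mice were not analysed here. Total counts per mouse ran from 27188854 to 47113661. All void libraries precede all DHT libraries in the library numbers, so library number and treatment cannot be told apart. Because whole tissue was measured, a larger number of cells of a type and more RNA per cell cannot be told apart either.

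Cysteine cathepsins and legumain are made as inactive precursors that mature in acid compartments, and cystatins are small proteins that block their active sites. Cystatin C, the product of Cst3, is secreted by many brain cells and inhibits most papain-like cathepsins, whereas cystatin F, the product of Cst7, is made mainly by immune cells and acts inside the endolysosome, with cathepsin C among its targets. Cathepsin D is an aspartic protease that cystatins do not block. In the brain, microglia are rich in several of these proteases, and Cst7 is widely used as a marker gene of microglia in disease.

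The promoters of Cst7, Ctsd and Ctss are shown because these genes stand for an inhibitor, a protease of all cell types and a protease of immune cells that were all higher with DHT. They are RefSeq sequences of build GRCm38.p6, 250 bases before the transcription start and 10 after it, each read 5′ to 3′ along the gene. The Cst7 promoter is at chr2:150570165-150570424 (+ strand), that of Ctsd at chr7:142387818-142388077 (− strand) and that of Ctss at chr3:95526536-95526795 (+ strand). Capitals mark matches, on either strand, to CACGTG, to its longer form GTCACGTG, to AGGTCA and to GAGGAAGT.
Cst7: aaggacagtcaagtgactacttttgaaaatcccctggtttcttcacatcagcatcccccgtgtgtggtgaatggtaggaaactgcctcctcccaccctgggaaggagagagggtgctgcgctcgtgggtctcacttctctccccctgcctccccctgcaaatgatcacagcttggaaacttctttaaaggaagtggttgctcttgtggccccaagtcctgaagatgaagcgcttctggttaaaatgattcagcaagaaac
Ctsd: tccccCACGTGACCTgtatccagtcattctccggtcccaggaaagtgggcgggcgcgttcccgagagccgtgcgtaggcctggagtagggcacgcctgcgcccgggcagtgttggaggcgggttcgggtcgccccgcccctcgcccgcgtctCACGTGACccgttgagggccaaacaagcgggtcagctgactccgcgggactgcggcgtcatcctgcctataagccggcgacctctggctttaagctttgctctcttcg
Ctss: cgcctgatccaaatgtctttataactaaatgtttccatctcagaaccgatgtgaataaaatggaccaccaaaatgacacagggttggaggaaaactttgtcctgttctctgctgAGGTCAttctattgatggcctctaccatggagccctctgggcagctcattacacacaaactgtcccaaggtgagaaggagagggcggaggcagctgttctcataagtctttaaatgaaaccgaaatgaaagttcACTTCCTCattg
In Ctsd, the first run of capitals holds CACGTG, the core of the E-box read by TFEB-type factors of lysosomal genes, overlapping a reverse match to AGGTCA, and the second holds CACGTG alone, both in the longer form. In Ctss, AGGTCA, the core letters of many nuclear receptor sites, lies upstream, and a reverse match to GAGGAAGT, the core letters of PU.1-type sites, lies at the start itself. The printed Cst7 stretch holds none of the searched motifs.

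Windows of 250 bases before and 50 after the start were found in RefSeq for 8 of the 10 genes, as 9 windows, and were searched on both strands beside 32851 windows of all genes. The letters CACGTG stood in windows of Ctsd, Ctsl and Lgmn and in 7.15% of all windows. The longer form GTCACGTG, which contains CACGTG, stood in windows of Ctsd and Lgmn and in 2.25% of all. The Lgmn matches lie in the window of a start that is not the start of a GENCODE M21 transcript. AGGTCA was found for Cst3, Ctsd and Ctss and in 16.3% of all windows, and its direct repeat with 1 base between the copies was found for none of the 8 genes and in 0.0396% of all windows. GAGGAAGT was found for Ctsc and Ctss and in 3.2% of all windows. These matches describe letters and were not tested as binding sites.

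Cst7 (ENSMUSG00000068129, chromosome 2) had the lowest counts and the largest change. Its level, in counts scaled to a common library size after TMM normalization (CPM), was 0.190, 1.05, 0.403, 0.812 and 0.120 in void replicates 4, 5, 9, 10 and 11, and 9.18, 1.48, 7.23, 7.09 and 5.03 in DHT replicates 1, 2, 3, 5 and 6. All values below follow this order of mice. Every DHT mouse lay above every void mouse, but DHT replicate 2 was far under the other DHT mice and only 1.40 times the highest void mouse. The void values rest on 9, 33, 13, 22 and 4 reads and the DHT values on 336, 60, 345, 237 and 169, so the void level is known with little precision. On the log2 scale Cst7 was higher with DHT by 3.59 ± 0.56 (here and below ± the standard error of the fit, edgeR adjusted p = 0.00761), a 12.1-fold difference with a 95% interval from 5.16 to 28.3. By upward fold change, Cst7 was in position 2 of all genes tested.

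Cst3 (ENSMUSG00000027447, chromosome 2) was measured at 308, 445, 423, 398 and 350 CPM with void and at 511, 402, 403, 540 and 557 CPM with DHT. The groups overlapped: DHT replicates 2 and 3 lay below void replicates 5 and 9. The log2 difference of Cst3 was 0.33 ± 0.12 (edgeR adjusted p = 0.166), a ratio of 1.25 with a 95% interval from 1.05 to 1.51. The inhibitors were then compared with each other within each mouse, as the log2 CPM of Cst7 minus that of Cst3. This difference was -9.72 ± 0.977 with void and -6.53 ± 0.934 with DHT (mean ± SD, n = 5 per group), higher with DHT by 3.19 ± 0.60 (standard error), and all 5 DHT mice lay above all void mice. A two-sided exact permutation test over the mice gave p = 0.00794, the lowest value possible for 5 against 5, or 0.0238 adjusted over the 3 ratios compared. The pair was taken from genes chosen with earlier results of these data known, and Cst7 alone already separated the groups. This p is therefore not independent support. In CPM, Cst7 came to 0.126% ± 0.0893 of Cst3 with void and 1.23% ± 0.611 with DHT (SD, n = 5 per group).

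**Figure D1:**
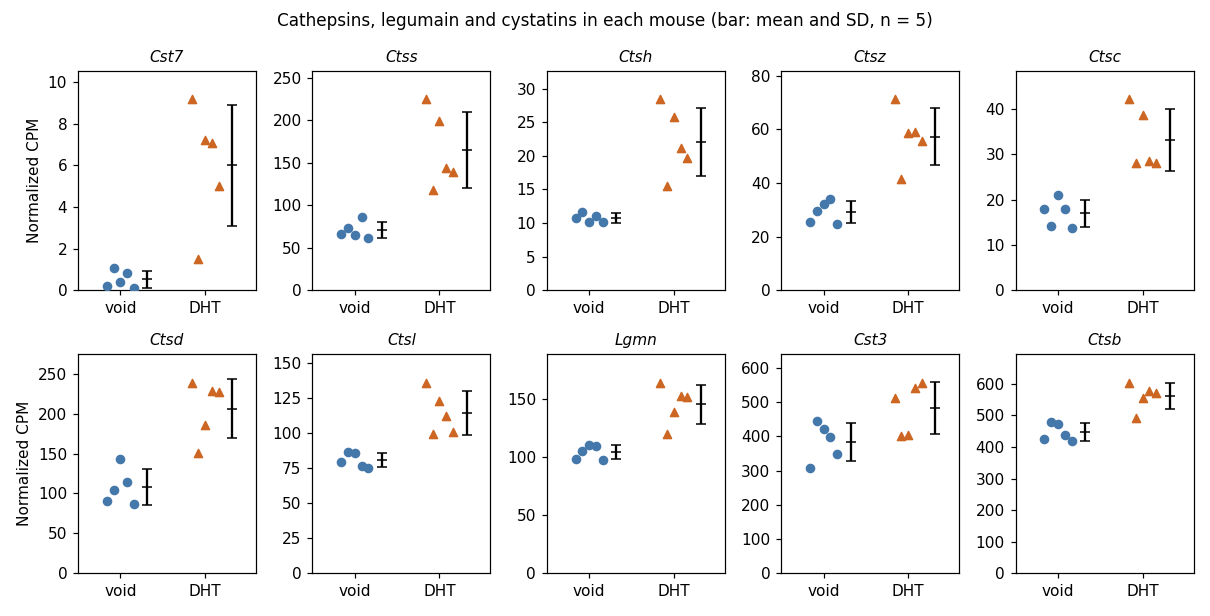
Normalized CPM of each of the 10 genes (vertical axes, each starting at 0) in the 5 void mice (circles) and 5 DHT mice (triangles), with the mean and SD beside the points; mice are in the order of their replicate numbers. All genes but Cst3 have every triangle above every circle, and in 9 of the 10 panels DHT replicate 1, the leftmost triangle, is the highest.

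Ctss (ENSMUSG00000038642, chromosome 3) encodes cathepsin S, which stays active at neutral pH and trims the invariant chain of MHC class II. It was at 66.3, 73.0, 64.8, 85.6 and 61.9 CPM with void and at 225, 118, 199, 144 and 140 CPM with DHT. Void replicate 10 was the highest void mouse and DHT replicate 2 the lowest DHT mouse, and the lowest DHT value was 1.38 times the highest void value. Ctss rose by 1.23 ± 0.17 in log2 units (edgeR adjusted p = 0.00670), with a 2.35-fold difference and a 95% interval from 1.83 to 3.01. In the order of p over all genes, Ctss stood at position 12, first of the 10 genes.

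Ctsc (ENSMUSG00000030560, chromosome 7) encodes cathepsin C, a dipeptidyl peptidase that activates the serine proteases of immune cell granules. Its values were 17.9, 14.1, 21.1, 17.9 and 13.7 CPM with void and 42.1, 28.1, 38.8, 28.6 and 27.99 CPM with DHT. Replicates 1 and 3 stood above the remaining DHT mice, which lay close together, and the groups did not overlap. Ctsc rose by 0.97 ± 0.15 in log2 units (edgeR adjusted p = 0.00761), or 1.96-fold (95% interval 1.55 to 2.46).

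Ctsh (ENSMUSG00000032359, chromosome 9) encodes cathepsin H, which acts mainly as an aminopeptidase, and Ctsz (ENSMUSG00000016256, chromosome 2) encodes cathepsin Z, a carboxypeptidase. For Ctsh, the void mice gave 10.7, 11.7, 10.1, 11.1 and 10.1 CPM and the DHT mice 28.4, 15.5, 25.7, 21.2 and 19.7 CPM. The void mice were nearly equal, with a coefficient of variation of 6.41%, against 22.96% among the DHT mice. Ctsh rose by 1.04 ± 0.14 in log2 units (edgeR adjusted p = 0.00670), or 2.06-fold (95% interval 1.66 to 2.55). For Ctsz, the values were 25.4, 29.6, 32.2, 33.9 and 24.7 CPM with void and 71.1, 41.5, 58.6, 59.0 and 55.7 CPM with DHT. Here 3 DHT mice lay close to each other, between a higher replicate 1 and a lower replicate 2. Ctsz rose by 0.97 ± 0.13 in log2 units (edgeR adjusted p = 0.00670), or 1.96-fold (95% interval 1.61 to 2.40). Ctsz shares 10 exon bases with Nelfcd on the opposite strand, whose log2 fold change was 0.02 (adjusted p = 0.944, edgeR).

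Ctsd (ENSMUSG00000007891, chromosome 7) encodes the aspartic protease cathepsin D, whose promoter with both CACGTG matches is printed above. The void mice had 91.1, 104, 144, 114 and 87.2 CPM and the DHT mice 239, 151, 186, 228 and 226 CPM. The groups came close: void replicate 9 at 144 CPM was just under DHT replicate 2 at 151 CPM, a ratio of 1.05. Ctsd rose by 0.93 ± 0.15 in log2 units (edgeR adjusted p = 0.00801), or 1.91-fold (95% interval 1.52 to 2.40). The annotation places Gm49369 on the same strand over 808 exon bases of Ctsd, and Gm49369 had no count in any mouse.

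Ctsl (ENSMUSG00000021477, chromosome 13) and Ctsb (ENSMUSG00000021939, chromosome 14) encode endopeptidases found in lysosomes of nearly all cell types. Ctsl was at 79.2, 86.6, 85.6, 76.7 and 75.1 CPM with void and at 136, 99.0, 123, 112 and 101 CPM with DHT. Ctsl shares 2137 exon bases in all with the antisense gene Gm47123 and, on its own strand, the processed pseudogene Gm49230, which had 1 and 0 reads over all libraries. The Ctsl groups did not overlap, and replicates 1 and 3 were again the highest DHT mice. Ctsl rose by 0.50 ± 0.09 in log2 units (edgeR adjusted p = 0.00992), or 1.41-fold (95% interval 1.24 to 1.62). Ctsb was at 424, 479, 472, 439 and 418 CPM with void and at 603, 493, 556, 577 and 572 CPM with DHT. The lowest DHT mouse was 1.03 times the highest void mouse, the narrowest gap of the 9 genes whose groups did not overlap. Ctsb rose by 0.33 ± 0.07 in log2 units (edgeR adjusted p = 0.0150), or 1.25-fold (95% interval 1.14 to 1.38). Ctsb did not pass without void replicate 11 (adjusted p = 0.0706, edgeR) or without DHT replicate 1 (adjusted p = 0.0642, edgeR). Its log2 fold change was then 0.28 and 0.26. Over all genes, those called higher fell from 920 to 351 and 395 in these fits, so the loss is not particular to Ctsb. Ctsb shares 774 exon bases with Fdft1 on the opposite strand, whose log2 fold change was -0.18 (adjusted p = 0.170, edgeR), and how the counting treated strand is not given in the sources used here.

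Lgmn (ENSMUSG00000021190, chromosome 12) encodes legumain, also called asparaginyl endopeptidase, which cuts after asparagine, helps mature other cathepsins and can cleave Tau and the amyloid precursor protein. It was at 98.2, 105, 111, 110 and 98.1 CPM with void and at 164, 120, 139, 153 and 152 CPM with DHT. The void mice differed little among themselves (coefficient of variation 5.83%), and all DHT mice lay above them. Lgmn rose by 0.48 ± 0.08 in log2 units (edgeR adjusted p = 0.00902), or 1.40-fold (95% interval 1.24 to 1.57). Set against its inhibitor Cst3 within each mouse, the log2 CPM of Lgmn was -1.87 ± 0.156 (SD, n = 5) in the void mice and -1.72 ± 0.139 (SD, n = 5) in the DHT mice, a difference of 0.15 ± 0.093 (standard error) with overlapping groups (two-sided exact permutation over mice, p = 0.151, adjusted over the 3 ratios 0.226). The count of genes whose every DHT mouse lay above every void mouse was thus 9 of 10, against 5.39% of all genes tested.

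Within the summed protease level, every DHT mouse had a smaller share of Ctsb and a larger share of Ctss than every void mouse. Summed over Lgmn and the 7 cathepsin genes, the level was 867 ± 63.5 CPM with void and 1303 ± 158 CPM with DHT (SD, n = 5 per group), and the ranges, 789 to 940 and 1065 to 1508, did not overlap. Ctsb made up 51.6% ± 1.65 of this sum with void and 43.2% ± 2.36 with DHT, while Ctss made up 8.12% ± 0.984 and 12.5% ± 2.22 (SD, n = 5 per group). The share of Ctsd was 12.4% ± 1.76 with void and 15.8% ± 1.65 with DHT, and that of Lgmn 12.1% ± 0.346 and 11.2% ± 0.493. These shares were not tested. For Ctss against Ctsd within each mouse, the log2 CPM difference was -0.61 ± 0.306 with void and -0.34 ± 0.351 with DHT (SD, n = 5 per group), higher by 0.26 ± 0.21 (standard error). This difference did not pass a two-sided exact permutation test over the mice (p = 0.270, adjusted 0.270). Of the DHT mice, 3 of 5 lay above all void mice. Relative to Cst3, the summed protease CPM was 2.28 ± 0.222 times with void and 2.73 ± 0.392 times with DHT, with overlapping ranges. The sum, the shares and this ratio use CPM not divided by exon length, so long genes weigh more in them. Exons span 6051 bases in Ctsb and 1266 in Cst3, so this ratio does not show that protease transcripts outnumber those of Cst3.

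**Figure D2:**
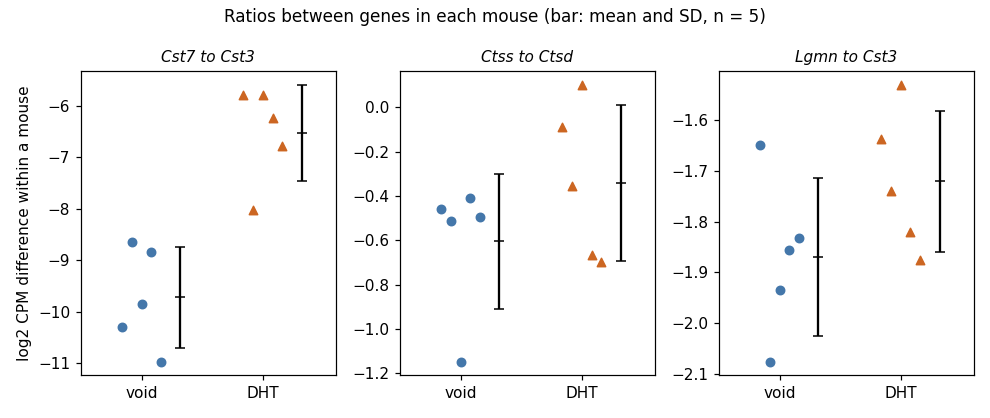
Difference in log2 CPM between 2 genes within each mouse (vertical axes, not starting at 0) for Cst7 against Cst3, Ctss against Ctsd and Lgmn against Cst3, in void (circles) and DHT mice (triangles), with the mean and SD of each group. The first ratio was apart in all mice, by 3.19 between the means, and the other two overlapped.

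Levels of different genes were compared per kilobase of exon, as CPM per kb. With void, Cst3 led at 304 ± 43.9 CPM per kb, followed by Ctsb at 73.8 ± 4.59, Ctss at 51.8 ± 6.96, Ctsd at 45.9 ± 9.59 and Lgmn at 44.96 ± 2.62 (SD, n = 5 per group). In that order, the ranges of Ctss and Ctsd, and those of Ctsd and Lgmn, overlapped. Ctsz at 20.2 ± 2.80 and Ctsl at 12.4 ± 0.802 came next, and Ctsc at 2.92 ± 0.528, Ctsh at 2.39 ± 0.153 and Cst7 at 0.523 ± 0.410 CPM per kb were the lowest, with Ctsc and Ctsh overlapping. With DHT, Cst3 was again first at 381 ± 59.2 CPM per kb, but Ctss at 122 ± 33.0 came before Ctsb at 92.6 ± 6.85 and Ctsd at 87.6 ± 15.7, with overlapping ranges between neighbours. In every DHT mouse and in 0 void mice, Ctss was above Ctsb per kb of all exons, but this held in only 2 DHT mice when the median coding transcript length was used in place of all exons. Lgmn at 62.7 ± 7.20, Ctsz at 39.7 ± 7.34 and Ctsl at 17.6 ± 2.38 CPM per kb followed with DHT. Cst7, last with void, was at 6.09 ± 2.96 CPM per kb with DHT, in the range of Ctsc at 5.70 ± 1.17, whose range overlapped that of Ctsh at 4.91 ± 1.13 (SD, n = 5 per group). By the median coding transcript length, Cst7 stayed last with DHT, at a mean of 6.09 CPM per kb against 11.6 for Ctsc and 13.7 for Ctsh, and Ctsh came before Ctsc in both groups.

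The highest and lowest DHT mice and the lowest void mouse were the same for most of the genes. Among the DHT mice, replicate 1 had the highest level of 9 genes and replicate 2 the lowest of 9, the exceptions being Cst3, highest in replicate 6, and Ctsc, lowest in replicate 6. Among the void mice, replicate 11 was lowest for 8 genes. After the group means were removed, Pearson's r between pairs of the genes over the 10 mice had a median of 0.677 over 45 pairs and ran from -0.0971, for Cst3 with Ctsc, to 0.934, for Ctsz with Lgmn. It was above 0.5 for 34 pairs. Pairs share libraries and depth, so these values describe these mice and were not tested.

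**Figure D3:**
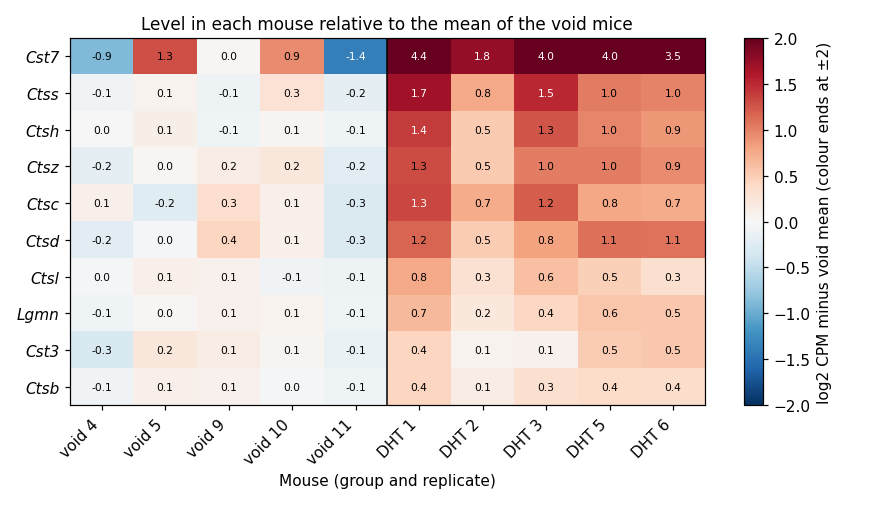
log2 CPM of each gene (rows) in each mouse (columns, void then DHT) minus the mean of the void mice; red is higher and blue lower, the colour scale ends at 2 in either direction, and the number in each cell is the value. DHT replicate 2 is the lowest DHT column for 9 of the 10 genes, and void replicate 11 is the lowest void column for 8.

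Genes that mark microglia and macrophages in any state moved with the 10 genes. Of 10 such markers, 9 were higher: Aif1 (log2 fold change 0.86), C1qa (1.296), C1qb (1.13), C1qc (1.16), Fcer1g (0.96), Laptm5 (0.85), Ly86 (1.18), Ptprc (1.25) and Spi1 (0.88). Itgam had a log2 fold change of 0.55 (adjusted p = 0.0658, edgeR). Their summed level was 138 to 203 CPM with void and 246 to 473 CPM with DHT, lowest in DHT replicate 2 and highest in DHT replicate 1, as for most of the 10 genes. The median log2 fold change was 1.05 over these markers and 0.95 over the 10 genes, against 0.01 over all genes tested. Of 12 markers of homeostatic microglia, 4 were higher, among them Csf1r (0.55), Cx3cr1 (0.54) and Gpr34 (0.57), with a median log2 fold change of 0.39 over the list and summed levels of 499 to 571 and 682 to 953 CPM. The part of microglial number or state in the changes of the 10 genes was not tested.

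Relative to the homeostatic microglia markers instead of all genes, a scaling under which the median over all genes is -0.40 (log2), 6 of the 10 genes were still higher. Their log2 fold changes were then 3.14 for Cst7, 0.79 for Ctss, 0.60 for Ctsh, 0.54 for Ctsz, 0.53 for Ctsc and 0.50 for Ctsd. Ctsl at 0.07 and Lgmn at 0.06 no longer passed, and Ctsb at -0.0956 and Cst3 at -0.0921 changed sign without passing. Relative to the markers of any state, a scaling added after the data were seen under which that median is -0.96, Cst7 alone was higher, at 2.54. Ctss at 0.21 (adjusted p = 0.343, edgeR), Ctsh at 0.01, Ctsz at -0.03, Ctsc at -0.05 and Ctsd at -0.06 did not pass in either direction, and Ctsl (-0.50), Lgmn (-0.51), Cst3 (-0.64) and Ctsb (-0.66) were lower. Of the 17622 genes tested, 206 were higher and 15845 lower under this second scaling, and 563 were higher and 10069 lower under the first. Being called lower was thus the common result over all genes under both. Both scalings move all genes alike, and under the second the values of Ctss, Ctsh, Ctsz, Ctsc and Ctsd were smaller than their standard errors.

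Choroid plexus is a tissue beside the hippocampus whose epithelium can be taken along in dissection. All 12 of its marker genes had a positive log2 fold change, with a median of 2.13, and 4 passed: Clic6 (2.16), F5 (2.68), Kl (1.85) and Otx2 (2.10). Their summed level was 120 to 1935 CPM with void, highest in void replicate 9, and 2256 to 3191 CPM with DHT. With a choroid plexus score per mouse as a covariate, edgeR called 0 genes of all tested, with 1207 genes (6.85%) at an unadjusted p under 0.05, and so none of the 10. At an unadjusted p, 9 of the 10 passed in that fit, all but Cst3, and all 10 kept a positive log2 fold change. Cst7 (3.94), Ctss (1.17) and Ctsh (1.02) kept 94.7% or more of their log2 fold change, while Ctsd kept 65.4% (0.61) and Ctsc 51.6% (0.50). Their standard errors in that fit were 1.10, 0.301, 0.255, 0.226 and 0.190 in this order, so these percentages are imprecise. The score was -1.66 to 0.414 with void and 0.599 to 1.01 with DHT, without overlap. Score and treatment therefore cannot be fully told apart, and the percentages do not divide the genes by tissue. Over the 10 mice with group means removed, Pearson's r with the mean log2 level of the choroid plexus markers was 0.745 for Ctsc, 0.493 for Ctsd and 0.0780 for Ctss, and with that of the microglia and macrophage markers it ran from 0.451 for Cst3 to 0.942 for Ctsz. These r values are descriptions over mice that share libraries.

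**Figure D4:**
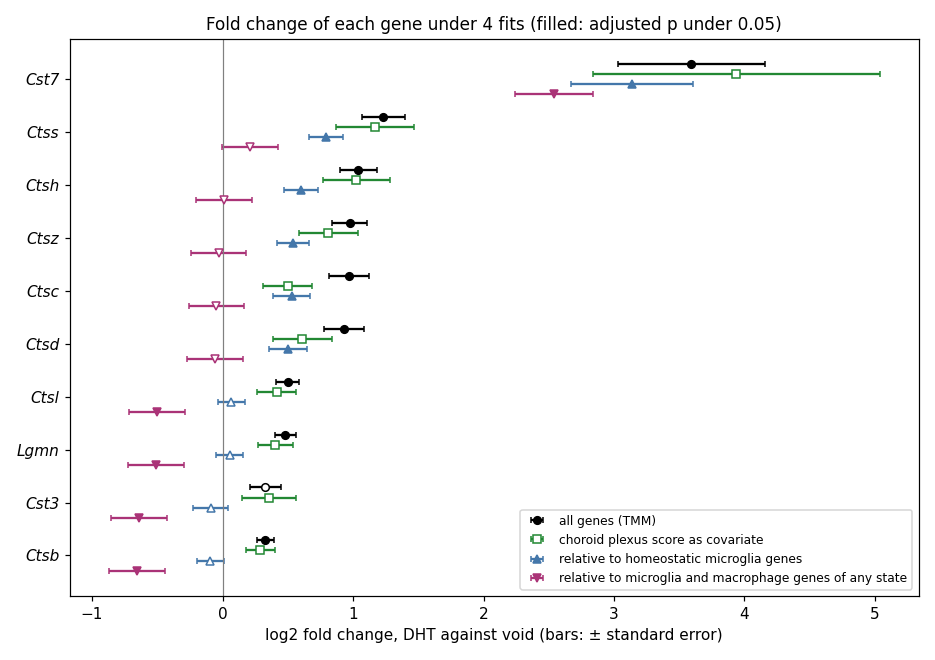
log2 fold change, DHT against void, of each gene (horizontal axis, bars ± standard error) in the fit over all genes with TMM, with a choroid plexus score as covariate, and relative to homeostatic microglia markers or to microglia and macrophage markers of any state; filled symbols have an adjusted p under 0.05. Cst7 lies above 2.5 in all 4 fits. Cst3 and Ctsb lie below 0 relative to either marker list, and Ctsc, Ctsd, Ctsl, Ctsz and Lgmn relative to the markers of any state alone.

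Few markers of other cells passed the test, namely 1 for astrocytes and 1 for meningeal fibroblasts. None of 7 tested border macrophage markers, 2 tested blood myeloid markers, 1 lymphocyte marker, 8 endothelial, 10 neuronal and 8 oligodendrocyte markers did. The tested blood markers Ccr2 and Ly6c2, both monocyte genes, summed to 0.192 to 1.86 CPM with void and 0.775 to 1.70 CPM with DHT, and the 8 other listed blood markers, neutrophil genes among them, had too few reads to be tested, from 2 to 74 each over all 10 libraries. Of the lymphocyte markers, Cd4 alone was tested, at 0.211 to 0.389 CPM with void and 0.239 to 0.383 CPM with DHT. The neuronal markers summed to 8179 to 8927 CPM with void and 7155 to 8230 CPM with DHT, and 9 of the 10 had a negative log2 fold change. The meningeal fibroblast markers summed to 103 to 161.6 CPM with void, below every DHT mouse at 162.4 to 196 CPM. However, 4 of these 8 markers had a positive and 4 a negative log2 fold change, with a median of 0.06. Much of the difference in the sum lay in Igfbp2, at a mean of 34.3 CPM with void and 77.0 CPM with DHT (adjusted p = 0.0652, edgeR). All 8 oligodendrocyte markers had a positive log2 fold change, with sums of 3123 to 4303 and 3872 to 4174 CPM. The part of these cells in the changes of the 10 genes was not tested. Of 10 astrocyte markers, Gfap was higher (1.18), and of 8 meningeal fibroblast markers, Igf2 was higher (1.68).

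Few of the remaining cathepsins and cystatins had enough counts to be tested. Of 19 other cathepsins and relatives, 6 had enough counts to be tested and 9 had no count in any mouse. Ctsa, the lysosomal carboxypeptidase that also protects beta-galactosidase, was higher by 0.45 on the log2 scale (adjusted p = 0.0137, edgeR), and Ctsf, Ctsk, Ctso, Bace1 and Bace2 did not pass, with log2 fold changes from -0.06 to 0.30. Of 22 other members of the cystatin family, 19 were in the table, 12 of these had no count and 2 were tested. Cstb, the cystatin inside the cytosol, rose by 0.31 (adjusted p = 0.0283, edgeR), and Cst6 had a log2 fold change of -0.40 (adjusted p = 0.413, edgeR). Among 4 tested serpins, inhibitors of another class, Serpina3n rose by 0.90 (adjusted p = 0.0177, edgeR). Of 34 other lysosomal hydrolases and lipid-binding proteins, 12 were higher, none by more than 2-fold, and the median log2 fold change of the list was 0.26 against 0.95 for the 10 genes. Among the 12 were Aga (0.52), Dnase2a (0.76), Fuca1 (0.47), Glb1 (0.37), Gm2a (0.42), Gusb (0.57), Hexa (0.42), Man2b1 (0.69), Naglu (0.77), Npc2 (0.70) and Tpp1 (0.32). The difference between the lists was not tested.

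Of 15 genes that sort lysosomal enzymes or control their transcription, Mitf was higher (0.70, adjusted p = 0.0176, edgeR). Tfeb, which encodes 1 of the factors that read the CACGTG-type element, had a log2 fold change of 0.49 (adjusted p = 0.105, edgeR). The list's median log2 fold change was 0.098. Among proteins that these enzymes cut, 9 genes of 13 were tested and 4 were higher. Cd74, the invariant chain trimmed by cathepsin S, was at 4.97 ± 2.18 CPM (SD, n = 5) in the void mice and 36.0 ± 18.02 CPM (SD, n = 5) in the DHT mice, higher by 2.87 in log2 units (edgeR adjusted p = 0.00761). Grn, the progranulin gene, rose by 0.71 (edgeR adjusted p = 0.00671), and the endosomal receptor genes Tlr7 and Tlr9, whose products are cut by cathepsins and legumain, rose by 0.999 and 1.07 (adjusted p = 0.0149 and 0.0139, edgeR). The other listed genes whose products legumain can cut did not pass: Mapt, the gene of Tau, had a log2 fold change of -0.05 (adjusted p = 0.738, edgeR), App of 0.05 and Set of 0.01. The mouse gene Mapt was counted here, and whether reads of the human transgene fell on it is not given in the sources used here.

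**Figure D5:**
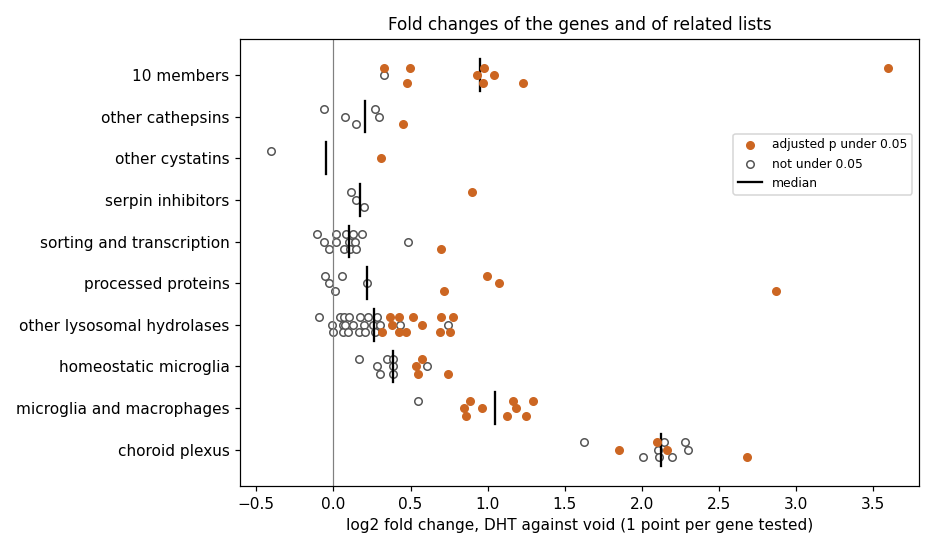
log2 fold change, DHT against void (horizontal axis), of every tested gene of the 10 genes ("10 members") and of related lists and marker lists (rows); filled points have an adjusted p under 0.05, and black bars are medians. The median is 0.95 for the 10 genes, 0.26 for the other lysosomal hydrolases, 1.05 for the markers of microglia and macrophages and 2.13 for those of choroid plexus.

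For 4 of the genes, the 3 genes with the most similar pattern over the 10 mice, after removal of the group means, were listed by Pearson's r. For Cst7 they were Capg (0.973), Itgax (0.969) and Atf3 (0.960), and for Ctss they were Fyb (0.992), Ly86 (0.979) and Tmem154 (0.959). For Ctsd they were Gm2a (0.967), a lysosomal lipid-transfer protein gene of the hydrolase list, Sorbs3 (0.962) and Gsn (0.960). For Cst3 they were ENSMUSG00000120160, which has no symbol in the annotation used (0.967), Mlc1 (0.954), known as an astrocyte gene, and Neurl2 (0.944). All of these r values were picked as the highest over all genes tested in 10 mice. Selection alone gives high values in such a search, and they were not tested.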

How the data were processed

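Bulk RNA-seq was measured in 5 void and 5 DHT hippocampi, 1 mouse each, grouped by the sample labels. The authors deposited raw counts per gene, made from KAPA mRNA libraries with HTStream trimming and STAR 2.7.10b alignment. The paper names mm10, whereas the submitters' processing notes list mm39, and the annotation, strand setting and treatment of reads with several matches are not given in the sources used here. Of 56884 rows, 51948 had a symbol in GENCODE M21 by identifier without version, and lengths and overlaps come from that annotation.

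The 10 genes, the related lists and the marker lists were chosen with earlier results of these data known. In R 4.3.3, edgeR 4.0.16 was used with TMM, its expression filter (17622 genes tested) and its quasi-likelihood test, called below 0.05 after Benjamini-Hochberg adjustment and separately with a log2 fold limit of 1. Each standard error is |log2 fold change| over the square root of F. Values per mouse are CPM after TMM, and ratios use log2 CPM with a prior count of 2. The scripts were tested on simulated data. Named are the 10 genes, every gene of the other lists that passed, and the 3 genes nearest in pattern to 4 of the 10; further genes of those lists, and genes overlapping the 10, were named after their values were seen. Values of 2 listed genes that passed are not reported here. Alternatives were DESeq2 1.42.0, DESeq2 size factors, library size alone, scaling on homeostatic markers, other filters, prior counts of 0.5 and 5, an unadjusted p, a choroid plexus covariate and leaving out each mouse. Scaling on markers of any state was added after the data were seen.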

Additional observations from a re-analysis of the deposited data

Results flagged for a closer look

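Of 26 groups examined, each holding the 5 mice of a group for 1 of the 10 genes or 1 of the 3 ratios, 1 held a mouse that stood apart, where chance gives about 1.3. In the ratio of Ctss to Ctsd, void replicate 9 was the lowest void mouse at -1.15 on the log2 scale, and its gap to the nearest void mouse was 0.859 of the group's range, against a critical value of 0.71. This mouse had the highest Ctsd level of the void mice, at 144 CPM, and the highest choroid plexus marker level of the void mice, at 1935 CPM. Without void replicate 9, the difference in this ratio between the groups was 0.13 instead of 0.26, and neither passed a two-sided exact permutation test. The cause was not tested.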

How the results depend on the processing

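The paper states that littermates were randomized to treatment, but the labels do not give litter, so no paired analysis was possible. The 9 higher genes of the 10 were called with DESeq2, its size factors, library size alone and no filter; with at least 10 counts in every library 8 were, since Cst7 was then not tested. Scaling on homeostatic microglia markers left 1 beyond the fold limit and 3 without overlap, and turned Ctsb (-0.0956) and Cst3 (-0.0921). Over all genes it gave 563 higher and 10069 lower, 253 and 125 beyond the limit. Scaling on markers of any state, chosen after seeing the data, left 1 of the 10 higher, also beyond the limit, and turned Cst3 (-0.64), Ctsb (-0.66), Ctsc (-0.0475), Ctsd (-0.0579), Ctsl (-0.50), Ctsz (-0.0288) and Lgmn (-0.51). Over all genes it gave 206 higher and 15845 lower, 92 and 7016 beyond the limit. The choroid plexus covariate gave 0 for all these counts of calls. Lower genes numbered 233 with DESeq2, and those beyond the limit 8 without a filter, 2 with at least 10 counts and 12 at an unadjusted p, which gave 2316 higher and 743 lower. With each mouse left out, 8 to 9 of the 10 were higher, 2 to 6 beyond the limit (6 without void replicate 9 or DHT replicate 2, 2 without void replicate 11, DHT replicate 1 or DHT replicate 3) and 9 without overlap. Higher genes then ranged from 351 to 1072, lower from 5 to 77, and beyond the limit from 175 to 513 and from 0 to 7. The ratio differences ranged from 2.89 to 3.57 for Cst7 to Cst3 (p from 0.00794 to 0.0159), 0.13 to 0.35 for Ctss to Ctsd and 0.097 to 0.20 for Lgmn to Cst3. The causes were not tested. Depth limits the void level of Cst7, which rests on 4 to 33 reads per mouse.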
